A study of Mus musculus with 8 samples.

Results

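The 8 genes followed here mark megakaryocytes and platelets, and were measured in 8 RNA-seq libraries of mouse cells: Pf4, Ppbp, Itga2b, Gp1bb, Gp9, Gp5, Gp6 and Vwf. They were taken by name from a table of 52784 genes, and all 8 were found. The libraries came from an experiment on in-utero transplantation (IUT), in which donor bone marrow cells are injected into fetuses, and on depletion of maternal dendritic cells (DC) before it. C57BL/6 (CD11c-DTR) females, whose CD11c+ cells can be killed by diphtheria toxin, were crossed with BALB/c males. DC-depleted dams had diphtheria toxin (DT) at 5 ng/g on embryonic day 13, which removes DC only for a time, and DC control dams had saline. On embryonic day 14 the fetuses received 5000000 donor cells, which were B6 cells in mIUT and BALB/c cells in pIUT. Mononuclear cells of 1 week old pups were sorted into maternal cells that had trafficked into the pup and the pup's own (recipient) cells, by the markers H2K-b and H2K-d. B6 donor cells also carry H2K-b and BALB/c donor cells H2K-d, so the part of donor cells in a library was not tested. Each origin gave 4 libraries: uninjected (17 pups pooled, without IUT, from dams with or without DT), DC control mIUT (7 pups), DC control pIUT (5 pups) and DC-depleted pIUT (5 pups). Each group was 1 pooled library, so no difference has a replicate check and no p-value is given, and intervals cover counting error only.

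Megakaryocytes are large bone marrow and fetal liver cells that shed platelets into the blood. Their genes fall into a few roles. Pf4 and Ppbp encode chemokines stored in platelet alpha granules. Itga2b encodes integrin alpha IIb (CD41), which pairs with integrin beta 3 (Itgb3) as the fibrinogen receptor and is also found on early blood progenitors and mast cells. Gp1bb, Gp9 and Gp5 encode subunits of the GPIb-IX-V complex, the receptor for von Willebrand factor, together with Gp1ba. Gp6 encodes the collagen receptor glycoprotein VI, and Vwf encodes von Willebrand factor itself, which endothelial cells also make. Transcription factors of the GATA and ETS families are known regulators of these genes.

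The promoters of 4 members are shown because these genes followed different courses over the libraries. Pf4 and Itga2b were highest in recipient uninjected cells, and Gp5 was highest in maternal DC-depleted pIUT cells. Gp9 was highest there too, but not when counts were scaled by library size alone. Each window runs from 250 bases before to 50 after the RefSeq start of the gene (table build GRCm38.p6) and had 1 exact match in GRCm39, whose coordinates are given. A RefSeq window was at hand for 7 of the 8 members. Capitals mark the GATA forms AGATAA or AGATAG or TGATAA or TGATAG, the ETS forms CCGGAA and CAGGAA, or their reverse complements.
Pf4, chr5:90920044-90920343, plus strand: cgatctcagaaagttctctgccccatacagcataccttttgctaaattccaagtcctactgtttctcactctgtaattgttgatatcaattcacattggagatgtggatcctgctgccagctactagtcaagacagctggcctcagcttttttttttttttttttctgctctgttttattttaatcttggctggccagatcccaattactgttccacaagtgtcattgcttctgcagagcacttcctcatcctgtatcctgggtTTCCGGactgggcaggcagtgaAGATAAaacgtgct
Itga2b, chr11:102360660-102360959, minus strand: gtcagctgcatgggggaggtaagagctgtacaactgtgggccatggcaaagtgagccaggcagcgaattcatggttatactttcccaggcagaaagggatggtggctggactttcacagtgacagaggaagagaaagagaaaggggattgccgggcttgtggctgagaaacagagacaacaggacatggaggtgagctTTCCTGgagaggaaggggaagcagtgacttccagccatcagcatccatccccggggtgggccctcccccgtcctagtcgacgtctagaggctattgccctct
Gp9, chr6:87754802-87755101, plus strand: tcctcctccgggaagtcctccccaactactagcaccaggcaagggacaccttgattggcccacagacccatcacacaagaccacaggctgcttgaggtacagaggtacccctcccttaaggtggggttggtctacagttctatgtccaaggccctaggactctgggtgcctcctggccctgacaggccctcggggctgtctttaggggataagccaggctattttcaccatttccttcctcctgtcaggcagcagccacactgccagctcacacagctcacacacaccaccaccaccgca
Gp5, chr16:30129550-30129849, minus strand: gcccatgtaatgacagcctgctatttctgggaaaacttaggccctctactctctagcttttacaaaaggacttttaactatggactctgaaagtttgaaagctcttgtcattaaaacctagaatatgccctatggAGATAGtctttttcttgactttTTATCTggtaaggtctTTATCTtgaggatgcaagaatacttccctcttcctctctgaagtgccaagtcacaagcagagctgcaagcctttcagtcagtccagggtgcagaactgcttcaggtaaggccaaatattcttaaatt
The Gp5 window held 3 GATA matches, 115, 93 and 77 bases before the start. Pf4 held 1 GATA and 1 ETS match, both after the RefSeq start. For Pf4 the whole window lies inside the annotated span of the counted gene (chr5:90918479-90922110), downstream of where that span begins. Itga2b held 1 ETS match 52 bases before the start, and Gp9 held neither motif. Of the 7 windows, 4 held a GATA form against 29.8% of 32851 windows in the RefSeq table, and 3 held an ETS form against 41.4%. Such matches are only a description of the letters.

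The libraries held 38543457 to 47965130 counts. Maternal DC control mIUT and recipient uninjected stood apart. Of the genes above 10 CPM (counts per 1000000 of the normalized library size) in all 7 other libraries, 4.86% (176 of 3622) were under 1 CPM in maternal DC control mIUT and 9.51% (359 of 3776) in recipient uninjected, against 0 to 1.26% in the other 6. A count of 0 in these libraries is therefore given as the library's value. In bulk samples, fewer cells of a type and less RNA per cell cannot be told apart. The markers of other blood cells also differed widely between libraries: summed neutrophil markers ran from 968.7 CPM in maternal DC control pIUT to 163800 CPM in recipient DC control mIUT, and summed erythroid markers from 134.6 CPM in recipient DC control mIUT to 131800 CPM in maternal DC-depleted pIUT.

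The members were most completely detected in recipient DC-depleted pIUT cells, where all 8 had over 3 counts. Over the whole table this library also had the most genes over 3 counts, 17806. Recipient uninjected, with 9937, and maternal DC control mIUT, with 10664, had the fewest. Over 3 counts were found for 7 members in maternal uninjected, 6 in maternal DC-depleted pIUT, 5 in recipient DC control pIUT and 3 each in recipient uninjected and recipient DC control mIUT. The DC control maternal cells had 2 such members after pIUT and 0 after mIUT. The summed level of the 8 genes did not follow this order. It was 371.5 CPM (366.1 to 377.0) in recipient uninjected, 103.9 (100.7 to 107.1) in maternal uninjected, 69.56 (67.37 to 71.8) in recipient DC-depleted pIUT, 51.42 (49.01 to 53.93) in maternal DC-depleted pIUT, 14.1 (13.03 to 15.24) in recipient DC control pIUT, 9.628 (8.791 to 10.52) in maternal DC control pIUT, 3.104 (2.492 to 3.819) in recipient DC control mIUT and 0.1033 (0.02815 to 0.2645) in maternal DC control mIUT. Pf4 made up most of the sum in 6 of the 8 libraries.

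**Figure D1:**
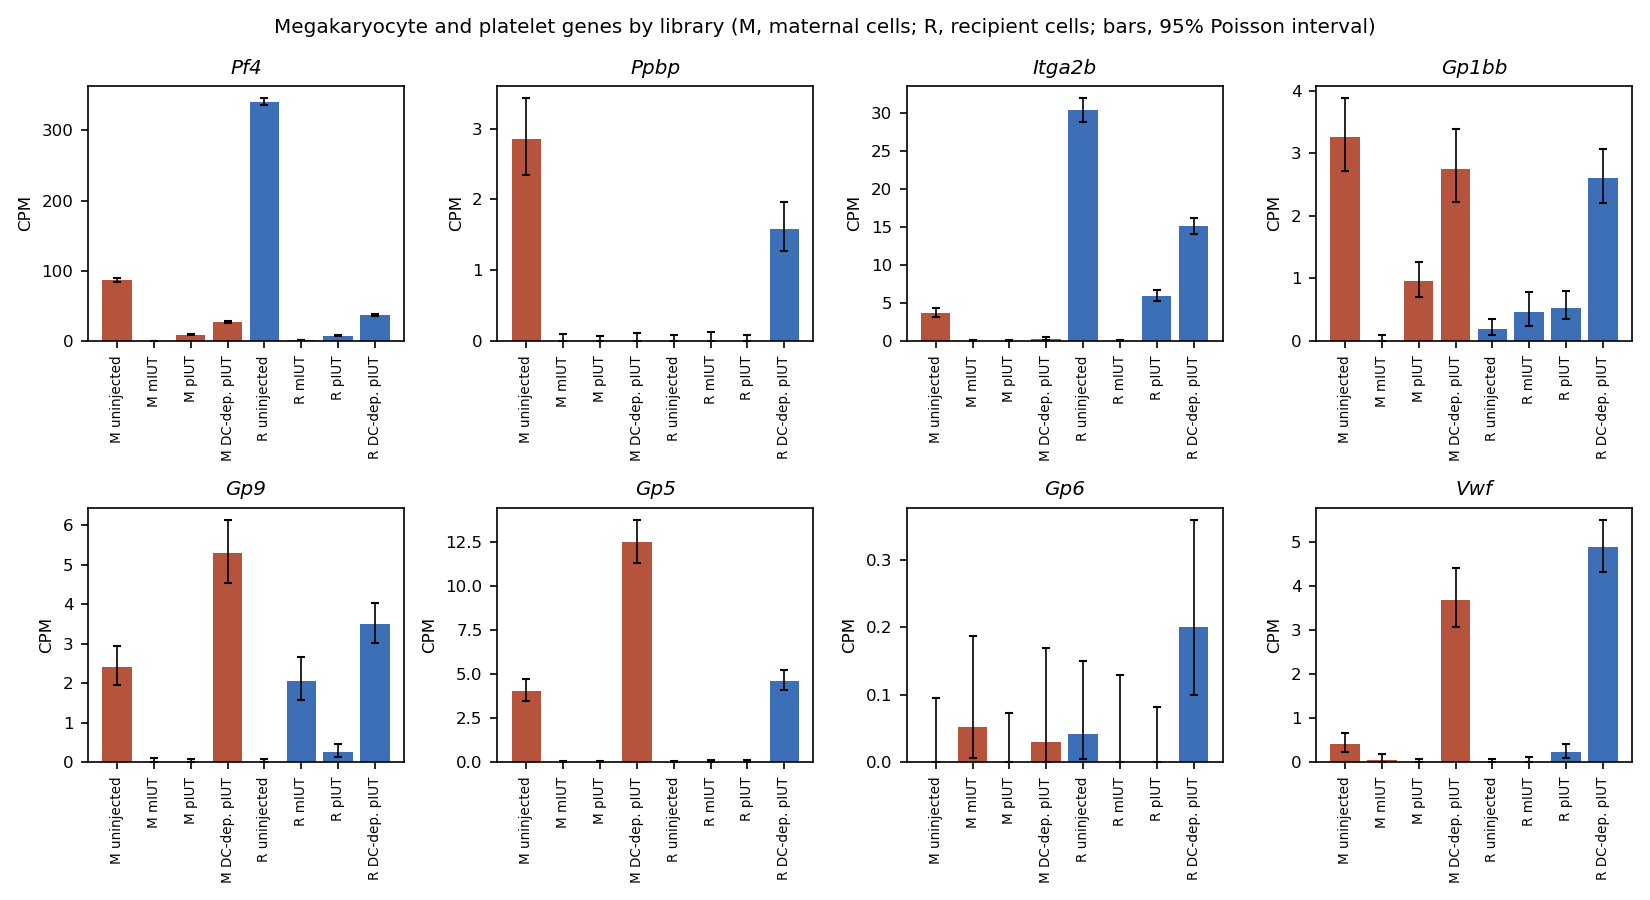
Level of each of the 8 genes (CPM, linear axis) in the 8 libraries, with 95% Poisson intervals for counting error; mIUT and pIUT without further mark are DC controls. Pf4 reached 340.9 CPM in recipient uninjected, whereas Gp5 and Gp9 were highest in maternal DC-depleted pIUT at 12.51 and 5.3 CPM.

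Among the granule chemokines, Pf4 (GRCm39 chr5:90918479-90922110, plus strand, 3 exons) was the most abundant member. In the order uninjected, DC control mIUT, DC control pIUT and DC-depleted pIUT, which is kept throughout, its counts were 3394, 0, 439 and 888 in the maternal libraries and 16486, 17, 321 and 2032 in the recipient libraries. Both uninjected libraries were highest, at 87.22 CPM (maternal) and 340.9 CPM (recipient), and both DC control mIUT libraries were lowest. Per kb of its longest transcript, Pf4 was the highest member in 6 of the 7 libraries with any member over 3 counts, and in recipient DC control mIUT it was Gp9, at 2.317 CPM per kb. Neighbouring libraries in the order of Pf4 levels had separate counting intervals, except the 2 DC control pIUT libraries at 8.679 and 7.107 CPM. Ppbp (chr5:90916371-90917930), the gene next to Pf4 on chromosome 5 that encodes CXCL7, was detected in only 2 libraries, with 111 counts in maternal uninjected and 87 in recipient DC-depleted pIUT. It was at 0 in the other 6, including recipient uninjected, where Pf4 was highest. A floor of 3 counts is 0.062 CPM in that library.

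Itga2b (chr11:102341397-102360955, minus strand, 30 exons) was mainly a recipient signal. Its counts were 143, 0, 0 and 8 in the maternal libraries and 1469, 0, 269 and 826 in the recipient libraries. The recipient level exceeded the maternal level 8.27-fold (6.96 to 9.88) in uninjected cells, at least 100-fold in DC control pIUT and 62.2-fold (31.4 to 145) in DC-depleted pIUT. Its partner Itgb3 had 183, 0, 0 and 10 counts in the maternal libraries and 0, 473, 399 and 980 in the recipient ones. The integrin's genes therefore did not run in parallel: recipient uninjected held 1469 counts of Itga2b and 0 of Itgb3, and recipient DC control mIUT held 0 of Itga2b and 473 of Itgb3. Mast cell and basophil markers summed to 0.2895 CPM in recipient uninjected, with 4 of 6 at 0, and to 1385 CPM in recipient DC-depleted pIUT, with none at 0. The highest Itga2b level was thus in a library almost without these markers, and the second highest, 15.07 CPM, was in the library with most of them, where their part in the Itga2b level was not tested.

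Of the GPIb-IX-V genes, Gp9 and Gp5 were highest in maternal DC-depleted pIUT cells. When counts were scaled by library size alone, Gp9 was instead highest in recipient DC-depleted pIUT cells. Gp9 (chr6:87755047-87756750) had 94, 0, 0 and 175 maternal counts and 0, 59, 12 and 192 recipient counts. Gp5 (chr16:30126502-30129631) had 158, 0, 0 and 413 maternal counts and 0, 0, 1 and 254 recipient counts. Both genes were at 0 in maternal DC control mIUT, maternal DC control pIUT and recipient uninjected, and Gp9 but not Gp5 was present in recipient DC control mIUT. The Gp5 level was 12.51 CPM (11.33 to 13.77) in maternal DC-depleted pIUT, 4.633 (4.081 to 5.24) in recipient DC-depleted pIUT and 4.06 (3.452 to 4.745) in maternal uninjected, and the last 2 intervals overlapped. Gp1bb (chr16:18439067-18441153) had 127, 0, 48 and 91 maternal counts and 9, 13, 24 and 143 recipient counts. Its highest levels, in maternal uninjected and both DC-depleted pIUT libraries (3.264, 2.756 and 2.609 CPM), had overlapping intervals. The Gp1bb values are uncertain, because the gene lies on the same strand within Septin5, which had 7 to 2002 counts per library, and reads could have been divided between them. Gp1ba, which encodes the subunit that binds von Willebrand factor, had 519 counts in maternal DC control pIUT, where Gp1bb had 48 and Gp9 and Gp5 were at 0, 53 in recipient DC-depleted pIUT, 4 in recipient DC control mIUT and 0 in the other 5.

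Gp6 (chr7:4366964-4400743) stood at or near the limit of detection, with 11 counts in recipient DC-depleted pIUT and 0 to 2 in the other 7 libraries. Vwf (chr6:125523737-125663642, 52 exons) had 16, 2, 0 and 122 maternal counts and 0, 0, 10 and 268 recipient counts. It was highest in both DC-depleted pIUT libraries, at 3.695 CPM (3.068 to 4.411) in maternal and 4.889 CPM (4.321 to 5.511) in recipient cells, and these intervals overlapped. Because endothelial cells also express Vwf, the endothelial markers Cdh5 (VE-cadherin) and Kdr (VEGF receptor) were set beside it. Cdh5 had 64, 12, 4 and 1 maternal counts and 847, 0, 14 and 123 recipient counts, and Kdr had 0, 286, 1092 and 0 maternal and 0, 26, 0 and 0 recipient counts. The library with most Cdh5, recipient uninjected, had no Vwf count, and maternal DC-depleted pIUT had 122 Vwf counts with 1 of Cdh5 and 0 of Kdr. In recipient DC-depleted pIUT, 9 of 10 endothelial markers had over 3 counts, with a summed level of 80.9 CPM. In maternal DC-depleted pIUT, 4 of 10 did, summing to 176.9 CPM, of which 168.0 CPM was Egfl7, with 5 at 0. Over all libraries the endothelial sum ran from 14.02 CPM in recipient DC control mIUT to 176.9 CPM, and its part in the Vwf level was not tested.

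The make-up of the member counts differed between libraries. Pf4 made up 91.8% (91.4 to 92.2; exact binomial interval) in recipient uninjected, 90.1% (87.1 to 92.6) in maternal DC control pIUT, 83.9% (82.8 to 85.1) in maternal uninjected, 53.3% (51.7 to 54.9) in recipient DC-depleted pIUT, 52.3% (49.9 to 54.7) in maternal DC-depleted pIUT, 50.4% (46.4 to 54.3) in recipient DC control pIUT and 19.1% (11.5 to 28.8) in recipient DC control mIUT. The remaining counts went to different genes. Gp1bb, Gp9 and Gp5 together held 40% (37.6 to 42.4) in maternal DC-depleted pIUT but 15.4% (14.3 to 16.6) in recipient DC-depleted pIUT, where Itga2b held 21.7% (20.4 to 23.0). In recipient DC control pIUT, Itga2b held 42.2% (38.4 to 46.2). For each count of the 3 GPIb-IX-V genes there were 1830 (965 to 4010) counts of Pf4 in recipient uninjected, 9.15 (6.78 to 12.6) in maternal DC control pIUT, 8.96 (8.05 to 9.98) in maternal uninjected, 8.68 (6.16 to 12.5) in recipient DC control pIUT, 3.45 (3.15 to 3.79) in recipient DC-depleted pIUT, 1.31 (1.18 to 1.45) in maternal DC-depleted pIUT and 0.236 (0.13 to 0.405) in recipient DC control mIUT. In that last library the 3 genes held 80.9% (71.2 to 88.5) of 89 member counts. In recipient uninjected, which missed most genes, and in maternal DC control pIUT, the GPIb-IX-V counts were of Gp1bb alone, 9 and 48, so these 2 ratios rest on the gene that is uncertain beside Septin5.

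**Figure D2:**
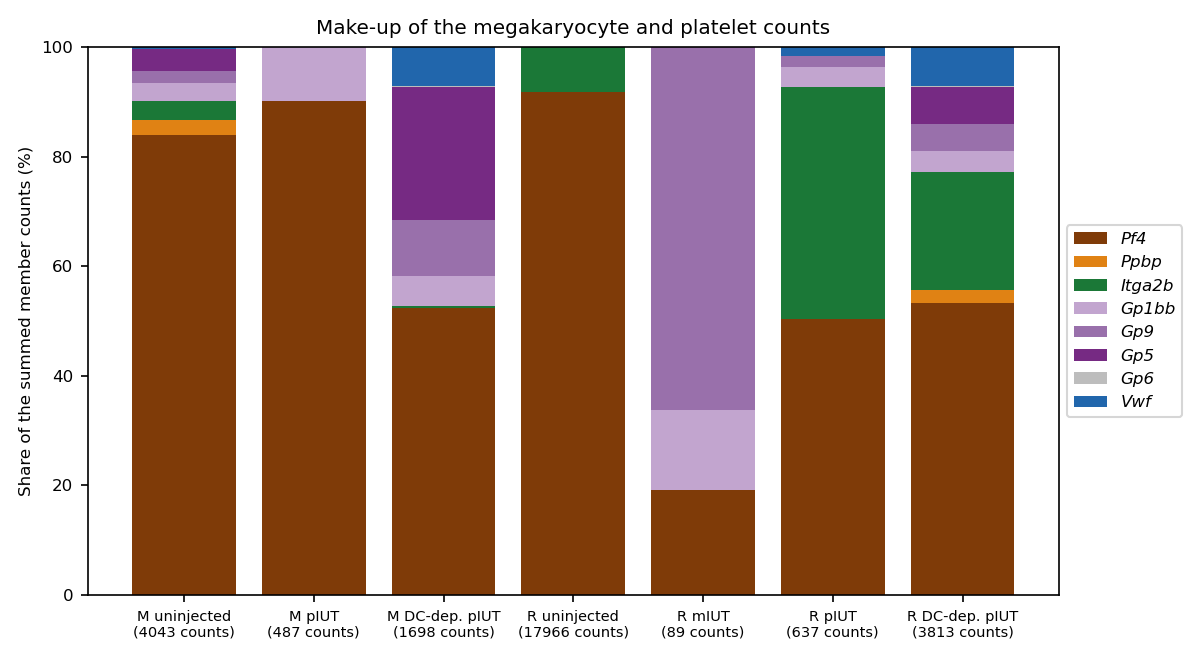
Share of the summed counts of the 8 genes (%, y axis) taken by each gene in the 7 libraries with more than 4 such counts; the total is under each bar. Pf4 makes up 91.8% of recipient uninjected and 52.3% of maternal DC-depleted pIUT, where Gp1bb, Gp9 and Gp5 make up 40%.

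Since macrophages are also known to express Pf4, the macrophage markers were compared with it. The 8 markers summed to 698.4 CPM in maternal DC control pIUT and to 35460 CPM in recipient DC control mIUT, but most of this was Lyz2, which neutrophils share. Without Lyz2, a choice made after its values were seen, the other 7 summed to 3150 CPM in recipient uninjected, 950 in recipient DC-depleted pIUT, 785 in maternal uninjected, and 154 to 290 in the other 5. C1qb, a complement gene of tissue macrophages, had 11269, 1816, 654 and 2099 maternal counts and 66109, 194, 3192 and 13064 recipient counts. The highest C1qb and the highest Pf4 were in the same library, recipient uninjected, where Ppbp, Gp9, Gp5 and Vwf were at 0. In maternal DC control mIUT, by contrast, C1qb had 1816 counts and Pf4 had 0. The part of these cells in the Pf4 level was not tested.

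**Figure D3:**
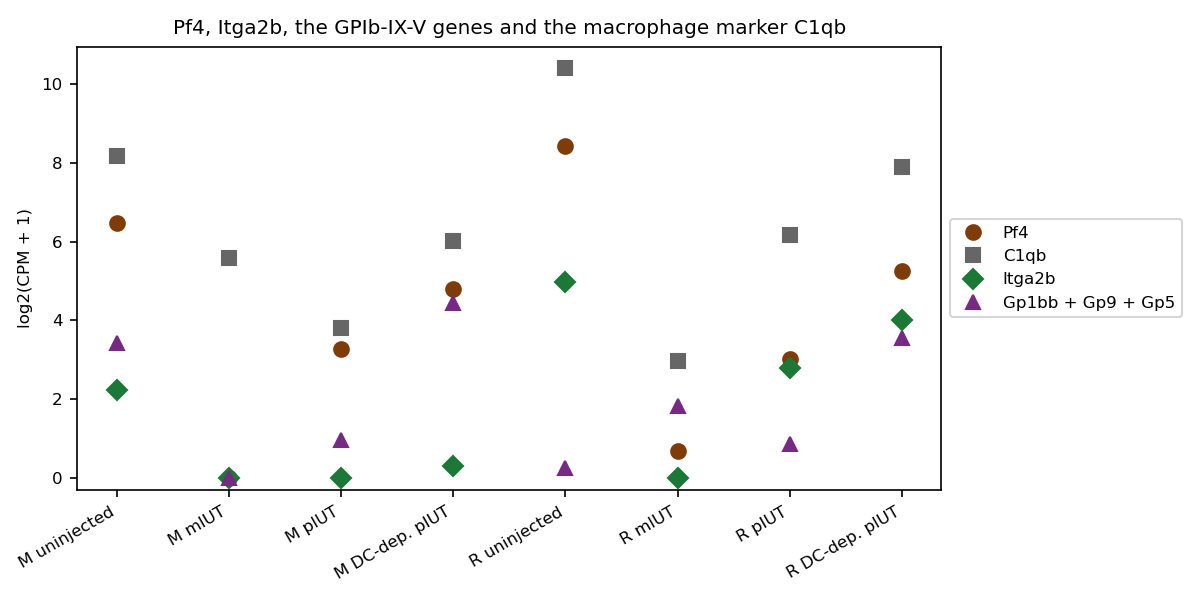
Pf4, Itga2b, the sum of Gp1bb, Gp9 and Gp5, and the macrophage marker C1qb in each library, as log2(CPM + 1). Pf4 and C1qb are both highest in recipient uninjected, where the summed GPIb-IX-V level is 0.1861 CPM; in maternal DC control mIUT the points of Pf4, Itga2b and the sum lie on each other at 0.

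The DC-depleted and DC control pIUT libraries differ by the toxin given to the dams. They are also pools of pups from different dams, each 1 library, and these differences cannot be told apart. All members with enough counts were higher in the DC-depleted library of each origin. In recipient cells, 6 of 8 members were at least 4-fold higher and 0 lower, against 13% and 6.53% of all 18999 genes compared. Pf4 was 5.22-fold higher (4.63 to 5.89), Gp1bb 4.91-fold (3.17 to 7.91), Gp9 13.2-fold (7.37 to 26) and Vwf 22.1-fold (11.8 to 46.6). Ppbp was at least 23.9-fold higher. The Gp5 ratio of 254 to 1 counts gave 209-fold (37.2 to 8300), and 69.8-fold at the 3-count floor used for calls and medians. Itga2b was 2.53-fold higher (2.2 to 2.91), and Gp6 had 11 against 0 counts, at least 3.02-fold. The median log2 ratio of the 8 was 3.05, and that of all genes compared was 0.12. In maternal cells, 4 of 6 members were at least 4-fold higher and 0 lower, against 24.4% and 26.3% of 16805 genes. Gp5 was at least 211-fold higher, Gp9 at least 89.4-fold, Vwf at least 62.3-fold and Itga2b, with 8 counts against 0, at least 4.08-fold. The count of 4 was 3 with DESeq2 size factors, library size alone or a floor of 10 counts. Pf4 was 3.1-fold higher (2.76 to 3.48) and Gp1bb 2.9-fold (2.03 to 4.21), while Ppbp and Gp6 were under the limit for a fold change in this pair. The maternal median was 4.00, against 0.10 for all genes, and it lies between Itga2b and Vwf, both bounds set by the 3-count floor. Markers of other cells also differed by at least 4-fold in these pairs. In recipient cells, 5 of 5 hepatocyte markers were higher, from at least 34.9-fold for Apob to at least 1940-fold for Alb, as were 7 of 9 endothelial, 4 of 8 erythroid, 3 of 6 mast cell and basophil and 2 of 8 macrophage markers (Mrc1 and Mertk), with 0 lower. Of the 5 neutrophil markers, Elane and Mpo were higher and Ngp, Camp and S100a8 lower, 3 of 5 T-cell markers were lower, and 0 of 5 B-cell markers differed by as much. In maternal cells, 6 of 6 mast cell and basophil markers, 4 of 5 neutrophil, 2 of 4 T-cell, 1 of 4 B-cell, 1 of 5 hepatocyte and 1 of 8 erythroid markers were higher, with 0 lower. Of 8 macrophage markers, 3 were higher (C1qa 4.83-fold, C1qb 4.92-fold and Mertk) and 2 lower, and of 8 endothelial markers 1 was higher and 6 lower. Their part in the members' differences was not tested.

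**Figure D4:**
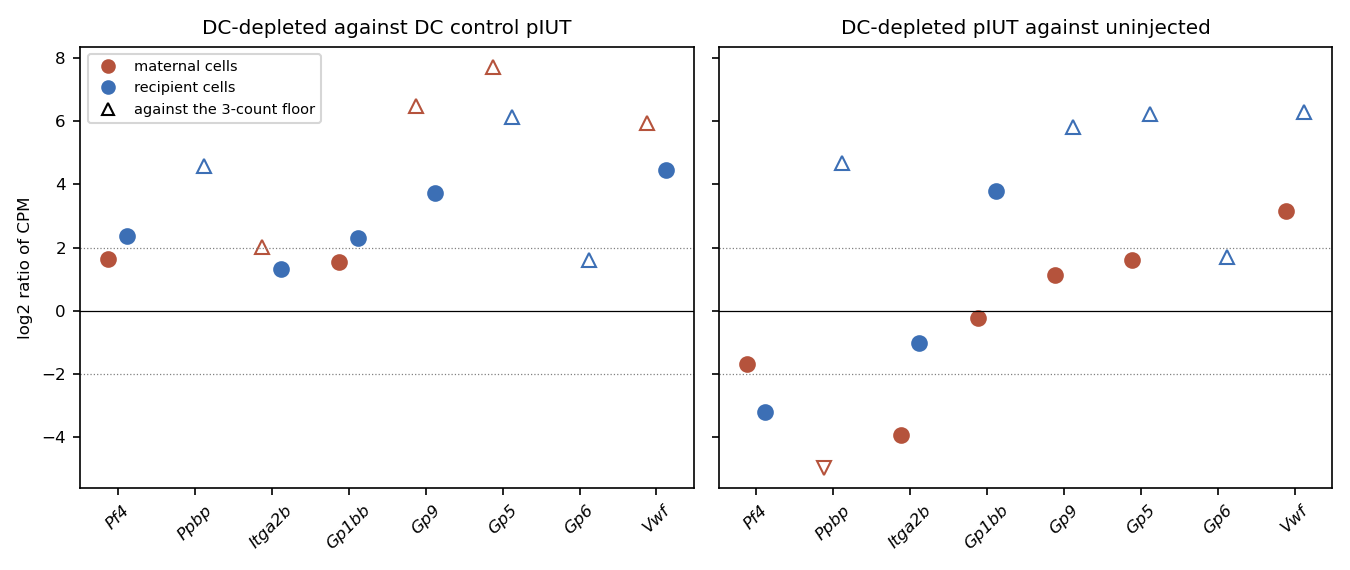
Log2 ratios of CPM in maternal and recipient cells for DC-depleted against DC control pIUT (left) and against uninjected (right); dotted lines mark 4-fold, and open triangles are ratios against the 3-count floor where a library had 3 counts or fewer. All drawn ratios on the left are above 0, whereas Pf4 and Itga2b are below 0 in both origins on the right.

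Against uninjected cells, Pf4 and Itga2b were lower in both origins after DC depletion and pIUT, while Gp9, Gp5 and Vwf were higher. In recipient DC-depleted pIUT, 5 of 8 members were at least 4-fold higher and 1 lower, against 42.9% and 9.99% of 18341 genes, so the higher share was near that of the whole table. Gp1bb was 14-fold higher (7.18 to 31.3), Vwf at least 78.8-fold, Gp5 at least 74.7-fold, Gp9 at least 56.5-fold and Ppbp at least 25.6-fold. Pf4 was 9.2-fold lower (8.78 to 9.63) and Itga2b 2.02-fold lower (1.85 to 2.2). In maternal DC-depleted pIUT, 1 of 7 members was at least 4-fold higher and 2 were lower, against 21.8% and 24.1% of 16779 genes. Vwf was 8.99-fold higher (5.32 to 16.2), Gp5 3.08-fold (2.56 to 3.72) and Gp9 2.19-fold (1.7 to 2.85). Pf4 was 3.24-fold lower (3.01 to 3.5), Itga2b 15.2-fold lower (7.49 to 35.8) and Ppbp at least 31.4-fold lower, and Gp1bb differed by less than its counting interval.

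In DC control IUT, maternal cells held few member counts compared with uninjected cells. After mIUT, 7 of 7 members were at least 4-fold lower, against 34.3% of 15280 genes, with bounds from 31.2-fold for Gp9 to 1130-fold for Pf4 and a Vwf ratio of 7.96-fold (1.87 to 71.4) from 2 against 16 counts, which is 5.31-fold at the 3-count floor. This maternal mIUT library is one of the 2 that missed genes. After pIUT, 6 of 7 were at least 4-fold lower, against 22.5% of 16574 genes. Pf4 was 10-fold lower (9.1 to 11.1), Gp1bb 3.44-fold lower (2.45 to 4.9), and Gp5 at least 68.5-fold lower. Markers of other cells differed too. From maternal uninjected to mIUT and pIUT, summed mast cell and basophil markers went from 318.2 to 0.02583 and 0.0 CPM. B-cell markers went from 6621 to 307.3 and 49.68 CPM, neutrophil markers from 1252 to 102300 and 968.7, and hepatocyte markers from 29.71 to 4114 and 93.9. Their part in the members' differences was not tested here. In recipient cells, 2 of 4 members were at least 4-fold lower and 1 higher after mIUT, against 16.1% and 42.6% of 15809 genes. Pf4 was 575-fold lower (359 to 987) and Itga2b at least 290-fold lower, whereas Gp9 was at least 33.2-fold higher. After pIUT, 2 of 5 were lower and 1 higher, against 12.2% and 41.7% of 16818 genes. Here Pf4 was 48.0-fold lower (42.9 to 53.7), Itga2b 5.1-fold lower (4.48 to 5.83) and Gp9, with 12 counts against 0, at least 4.28-fold higher. With DESeq2 size factors or a floor of 10 counts, 0 members were higher here. The comparisons with uninjected cells share 1 control library in each origin, and in recipient cells that library is the one that missed most genes.

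The 2 donor types were compared within DC controls. In recipient cells, 2 of 5 members were at least 4-fold higher in pIUT than mIUT and 1 lower, against 18.3% and 13.4% of 17397 genes. Pf4 was 12-fold higher (7.37 to 20.8) and Itga2b at least 56.9-fold higher, and Gp9 was 7.74-fold lower (4.12 to 15.8). In maternal cells only Pf4 and Gp1bb could be compared, and both were higher in pIUT, at least 112-fold and at least 12.2-fold, against 35.3% of 15332 genes past 4-fold higher and 18.5% lower. The maternal mIUT library had 0 counts of both and is one of the 2 that missed genes, and at a floor of 10 counts 1 member was higher.

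Between the origins, the pattern changed with treatment. In uninjected cells, 5 of 7 members were at least 4-fold higher in maternal than recipient cells and 1 lower, against 38.7% and 14.2% of 14948 genes. Gp1bb was 17.5-fold higher (8.95 to 39.2), Gp5 at least 65.5-fold, Ppbp at least 46.0-fold, Gp9 at least 38.9-fold and Vwf at least 6.63-fold. These rest on 9 counts of Gp1bb and 0 of the other 4 genes in recipient uninjected, the library that missed most genes. The member called lower was Itga2b, at 8.27-fold (6.96 to 9.88), and Pf4, at 3.91-fold lower (3.77 to 4.06), was within 4-fold, whereas 2 members were lower with DESeq2 size factors. In DC-depleted pIUT, 0 of 8 were higher and 2 lower in maternal cells, against 9.31% and 25.7% of 18814 genes. The 2 were Itga2b and Ppbp (at least 17.5-fold lower), and Gp5 was 2.7-fold higher in maternal cells (2.3 to 3.17). In DC control mIUT, 3 of 3 members were at least 4-fold lower in maternal cells, against 33.6% of 15600 genes, but 1 at a floor of 10 counts. In DC control pIUT, 2 of 5 were lower (Itga2b, and Gp9 at least 4.48-fold from 0 against 12 counts) and 0 higher, against 23.5% and 17.6% of 17714 genes. With DESeq2 size factors, library size alone or a floor of 10 counts, 1 was lower.

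The wider platelet programme was described by 4 further lists. Of 12 platelet receptor genes, 11 had over 3 counts in recipient DC-depleted pIUT and 3 in recipient uninjected. Of all genes, 17806 and 9937 did, the most and the fewest of the 8 libraries. Itga2 was at 0 in every library. Treml1, which encodes a platelet granule membrane receptor, had 102 counts and Tubb1, the platelet beta-tubulin, had 70 counts in recipient DC-depleted pIUT and 0 in the other 7 libraries. Clec1b, the podoplanin receptor CLEC-2, had 1, 0, 0 and 165 maternal counts and 0, 0, 23 and 351 recipient counts. For DC-depleted against DC control pIUT in recipient cells, at least 4-fold differences were found in 3 of 11 receptor genes (all higher), 5 of 14 formation and signalling genes (all higher), 4 of 8 transcription factors (all higher) and 2 of 7 granule proteins, 1 higher (Mmrn1) and 1 lower (Thbs1), against 13% higher and 6.53% lower of all 18999 genes. Gata1, the GATA factor of the megakaryocyte and erythroid lineages, was 5.11-fold higher. The median log2 ratios were 0.61, 1.03, 1.76 and 0.98, against 0.12 for all genes. Against 24.4% higher and 26.3% lower of all 16805 genes in maternal cells, 5 of 9 receptor genes were higher and 2 lower, 0 and 4 of 6 granule proteins, 1 and 5 of 13 formation and signalling genes, and 0 and 2 of 7 transcription factors, with medians of 2.35, -5.21, -0.59 and 0.83. Gata1 had 1636, 1, 5932 and 13302 maternal counts and 45, 63, 324 and 2010 recipient counts. Its highest count was in maternal DC-depleted pIUT, where Gp5 and, except with library size alone, Gp9 were highest, as were the erythroid markers. The most abundant genes of these lists, such as Cd9 (55.39 to 839.8 CPM), Srgn (259.0 to 1311 CPM), Fermt3 (105.5 to 720.3 CPM), Fcer1g (56.63 to 1561 CPM) and Nfe2 (93.03 to 727.9 CPM), were present in every library, including maternal DC control mIUT, which had no member over 3 counts, and are widely expressed in blood cells.

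**Figure D5:**
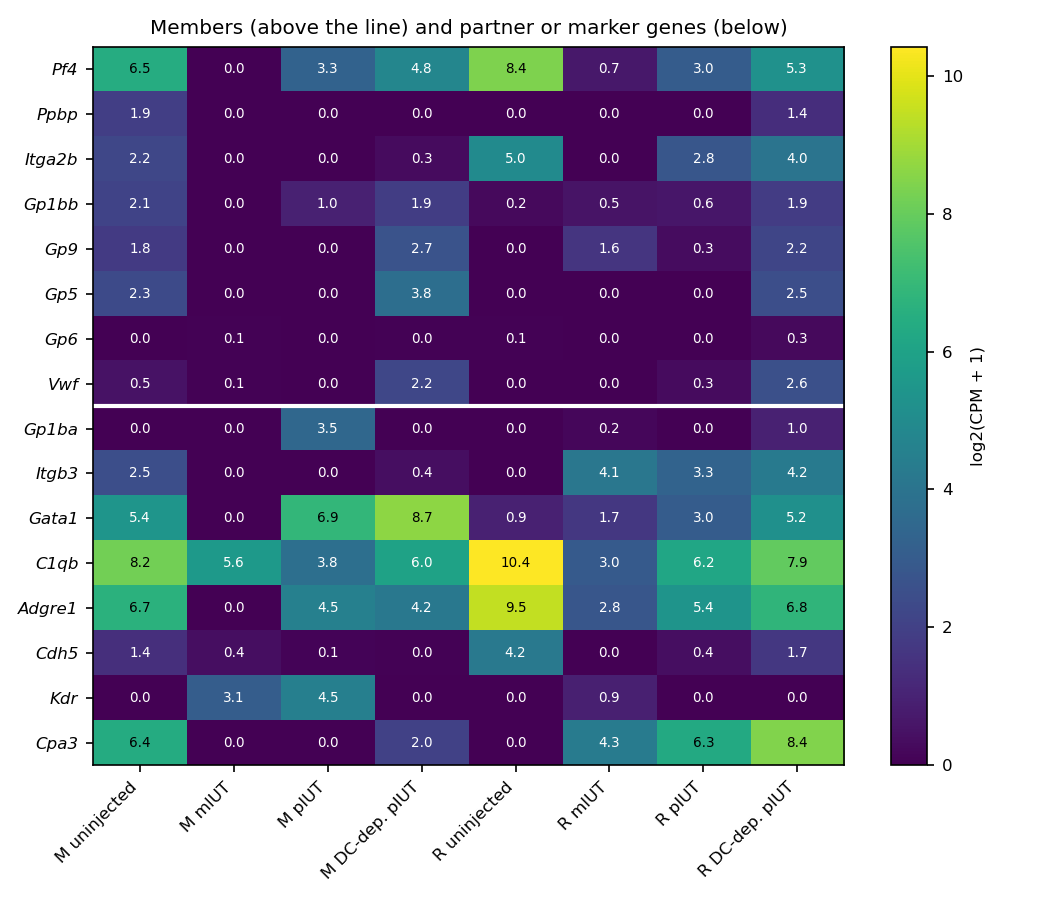
Heat map of log2(CPM + 1) for the 8 members (above the white line) and for partner and cell-type marker genes (below), with libraries in columns; M is maternal and R recipient. Itgb3 reads 0.0 in recipient uninjected, where Itga2b reads 5.0.

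Over the 8 libraries, pairs of members ran together in different ways. On log2(CPM + 1), Pearson's r was 0.894 for Gp1bb and Gp5, 0.873 for Gp9 and Gp5, 0.864 for Gp5 and Vwf, 0.81 for Gp1bb and Gp9, 0.758 for Pf4 and Itga2b and -0.057 for Itga2b and Gp9. Without the 2 libraries that missed genes, r was 0.914, 0.85, 0.837, 0.689, 0.509 and 0.125 for the same pairs, and r of Pf4 went from 0.437 to 0.922 with Gp1bb and from 0.392 to 0.755 with Gp5. These are descriptions over 8 pooled libraries of similar depth whose markers of other cells differed. The genes whose pattern was most like the mean of the 8 members, of 9682 compared, were Dipk1a (0.959), Tmem141, Slc30a5, Cd5l (0.92), Crtap, G430095P16Rik, Fars2, Polr2m, Mmgt2 and Tbxas1 (0.864). Cd5l, a secreted protein of tissue macrophages, was at 95.5, 0, 0 and 42.8 CPM in the maternal and 251, 1.15, 5.89 and 101 CPM in the recipient libraries. Tbxas1, thromboxane synthase of platelets and macrophages, was the gene most like Pf4 (0.962), with Wars2 and Rmnd1 next. Most like the others were BE692007, Tgfb1 and Treml4 for Ppbp, Osbpl3, Cyp11a1 and Srp68 for Itga2b, Amz1, Dnase2a and Dus2 for Gp1bb, Mars2, Thnsl1 and Tefm for Gp9, Erg28, Kctd14 and Bud23 for Gp5, Hcfc1, Fga and Ubap2 for Gp6, and Agxt, Cyp3a11 and Cd209f for Vwf. Agxt (0.977 with Vwf) and Cyp3a11 (0.974) encode liver enzymes and were at 0 CPM in the 6 libraries other than the DC-depleted pIUT ones. Summed hepatocyte markers were also higher in DC-depleted than DC control pIUT, at 332.9 against 93.9 CPM in maternal cells and 436.6 against 1.019 CPM in recipient cells. They were highest in 2 libraries with 0 to 2 counts of Vwf, at 4114 CPM in maternal DC control mIUT and 1106 CPM in recipient uninjected, which are the 2 that missed genes. Their part in the Vwf level was not tested.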

How the data were processed

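RNA-seq was done on mononuclear cells of maternal and recipient origin, pooled within groups. Per the labels and methods, the authors ran the nf-core pipeline on GRCm39 with GENCODE M26. The deposited values are estimated counts per gene as salmon merges them, not whole numbers, and they were rounded; whether counting used strand is not given in the sources used here. Symbols came from GENCODE vM39 (97.99% of identifiers matched). Counts were scaled by TMM factors (edgeR 4.0.16, R 4.3.3) to CPM. With 1 library per group, no statistical test between groups was run. Levels carry exact Poisson and ratios exact conditional binomial 95% intervals (scipy 1.17.1). A count of 3 was the floor, to which lower counts were raised for calls at 4-fold, and genes with over 3 counts in either library were compared. The code for the 4-fold calls was checked on simulated counts, which says nothing of replicate error.

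The members and all gene lists were chosen with earlier results of these data known. Genes named were the members, the 10 genes most like their mean pattern and the 3 most like each member (genes of at least 10 CPM in 2 libraries), the 2 most abundant of each other list, Gp1ba, Itgb3, Gata1, Cdh5 and Kdr; 1 further gene of this rule, left out of its list, is not reported here. Treml1, Tubb1, Clec1b, Itga2, Mmrn1, Adgre1, Septin5 and, among markers of other cells, Alb, Apob, C1qa, Mrc1, Mertk, Elane, Mpo and Camp were named after their values were seen. Alternatives were DESeq2 1.42.0 size factors, library size alone, edgeR fold changes at a dispersion of 0.4, other thresholds, floors and offsets. Receptor clonotype files were not used here.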

Additional observations from a re-analysis of the deposited data

Results flagged for a closer look

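In 3 cases a member was past 4-fold in opposite directions in the 2 origins under the same contrast. Over all genes, 34.3% were lower in maternal and 42.6% higher in recipient cells in DC control mIUT against uninjected. These shares were 22.5% and 41.7% in DC control pIUT and 24.1% and 42.9% in DC-depleted pIUT. The share of all genes with both calls was not computed. Gp9 was lower in maternal and higher in recipient cells in DC control mIUT against uninjected, where the log2 ratios differed by 10.01, and in DC control pIUT against uninjected, where they differed by 7.45. The recipient side of the latter rests on 12 counts and is not past 4-fold with DESeq2 size factors or a floor of 10 counts. Ppbp was lower in maternal and higher in recipient cells in DC-depleted pIUT against uninjected, with a difference of 9.65. Each ratio has 0 counts in 1 of its libraries and is taken at the 3-count floor, and the recipient uninjected library, at 0 for both genes, enters all 3. The differences were not tested, since each group is 1 library.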

How the results depend on the processing

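Each comparison sets 1 library against 1, so no library of a group could be left out. No paired analysis was run. It would pair the maternal and recipient libraries of each treatment, which were sorted from the same pooled pups. An origin effect averaged over the 4 treatments, with treatment as a block, could be fitted but was not run. Of the 28 counts of members past 4-fold, 25 stayed within 1.5 times with DESeq2 size factors, 27 with library size alone, 27 with edgeR fold changes, 24 with a floor of 10 counts, 22 at a 2-fold threshold and 28 with a filter of 10 counts. Such counts have no direction, but small ratios could turn with the scaling. Gp9 and Gp1bb were 1.51-fold and 1.06-fold higher in maternal than recipient DC-depleted pIUT cells, but lower with library size alone. With DESeq2 factors the members higher in recipient DC control pIUT than uninjected went from 1 to 0, those lower in maternal than recipient uninjected from 1 to 2 and those lower in maternal than recipient DC control pIUT from 2 to 1. With library size alone the last was also 1. With edgeR fold changes 2 members were higher in recipient DC control pIUT than uninjected. At a floor of 10 counts, the values were 0 for that comparison, 1 for maternal DC control pIUT higher than mIUT, and 1 each for maternal lower than recipient in DC control mIUT and DC control pIUT. At 2-fold, 3 members were higher in maternal DC-depleted pIUT and 3 in recipient DC control pIUT than uninjected, 2 were higher in recipient DC control mIUT and 2 lower in recipient DC-depleted pIUT than uninjected, 2 were lower in maternal than recipient uninjected cells, and 1 was higher in maternal than recipient DC-depleted pIUT. The summed level in CPM became 11.01 (maternal DC control pIUT), 380.9 (recipient uninjected), 12.98 (recipient DC control pIUT) and 65.6 (recipient DC-depleted pIUT) with DESeq2 factors, and 12.34 (maternal DC control pIUT), 44.05 (maternal DC-depleted pIUT), 2.14 (recipient DC control mIUT), 15.92 (recipient DC control pIUT) and 92.08 (recipient DC-depleted pIUT) with library size alone. Of the 10 genes most like the members, 3 remained with an offset of 0.1, 2 without the maternal DC control mIUT and recipient uninjected libraries and 5 with library size alone, so this list depends on these settings; the cause was not tested. Leaving out those 2 libraries or asking for 10 counts, both chosen after seeing the data, moved no member's number of libraries by more than 1. Gp6 had 11 counts or fewer in every library, and the floor of 3 counts is 0.0547 to 0.105 CPM.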
